A study of Mus musculus with 16 samples.

Results

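Liver RNA of young mice that carried a MANF plasmid was compared with liver RNA of young mice that carried an empty plasmid, in 8 of the 16 libraries of a series that also held old mice. All animals were C57BL/6 mice given an EEV plasmid by hydrodynamic tail vein injection, in which a large volume is injected fast so that DNA enters liver cells, and livers were collected 5 weeks afterwards. Young mice were 5 months old, with 4 animals on the plasmid coding human MANF (young MANF) and 4 on the empty plasmid (young control). The old groups were 23 months of age, with 4 animals on each plasmid. They served to set old MANF minus control differences beside the young ones, and to test whether the effect differed with age. Control animals therefore had the injection and a plasmid as well, and uninjected mice were not among the samples. The labels give neither the sex of the animals, nor the promoter of the plasmid, nor the hour of the day at which livers were taken. Each library came from 1 animal.

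The values are RPKM, reads per kilobase of gene length, scaled to the size of the library. Genes that reached 0.5 RPKM in 4 or more of the 8 young libraries were tested, which kept 9978 of 24010 table entries. Differences are given as the log2 difference, the mean of log2(RPKM + 0.5) in young MANF minus that in young control libraries, so the change of genes near or below 0.5 RPKM is understated. Called genes are those with a limma p below 0.05 after Benjamini-Hochberg adjustment over the 9978 genes.

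MANF, the mesencephalic astrocyte-derived neurotrophic factor, is a small protein of the endoplasmic reticulum (ER) lumen. Its gene is among those switched on when unfolded proteins build up there, the protein binds the ER chaperone BiP, and part of it is secreted and can act on other cells. Hepatocytes, the main cells of the liver, load their ER heavily because they make most plasma proteins. They also make the acute-phase proteins, a set of plasma proteins that liver cells produce in large amounts on signals from interleukin-6 and interleukin-1.

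Reads behind the RPKM numbered 18.35 to 25.79 M (M, megareads) in young control and 19.35 to 26.12 M in young MANF libraries. All 10 hepatocyte markers were tested, among them albumin. Their summed level was 30191 to 35088 RPKM in control and 35726 to 42326 RPKM in MANF livers, so the sums did not overlap. A sum follows its most abundant members. Of the 10 markers, 7 had a log2 difference above 0, with a median of 0.14 (0.08 without young MANF replicate 3). In 1 of them every MANF library was above every control library, beside 2.4% of all tested genes. Young MANF replicate 3 stood apart. Its root mean square log2 deviation from its group was 0.360, against 0.175 to 0.229 in the other 7 libraries, it had 7885 genes at 1 RPKM or more against 8376 to 8828, and it lay alone at one end of the first principal component, which held 43.7% of the variance. Values that leaving it out moved by more than 1.5 times are given both ways. The median log2 difference of all tested genes was -0.09, and 0.01 when libraries were scaled to equal medians, a shift of more than 0.1 against which the values below should be read. On the deposited scale 32.8% of the tested genes had a log2 difference above 0, 36.7% without MANF replicate 3 and 52.4% after median scaling. In these bulk samples, fewer cells of a type and less RNA per cell cannot be told apart. Among old libraries, control replicate 4 stood apart, with 9496 genes at 1 RPKM or more against 8635 to 8867 in the other old controls. Albumin took 6.84% of its reads in listed genes, against 10.53 to 11.71% in those controls. Old log2 differences and list medians are given on the deposited scale with that library in.

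Manf of the mouse, the gene of the protein that the plasmid supplies, was examined first (chromosome 9, 106838312 to 106891979, minus strand, GRCm38). It was read at 14.4, 8.64, 8.95 and 8.57 RPKM in young control replicates 1 to 4 and at 13.8, 7.53, 12.1 and 12.3 RPKM in young MANF replicates 1 to 4. The groups overlapped, with control replicate 1 the highest of all 8 libraries and MANF replicate 2 the lowest. The log2 difference was 0.16 (exact two-sided permutation p = 0.486, 70 arrangements, smallest possible p 0.0286), and it was 0.34 without control replicate 1 and 0.07 without MANF replicate 1. The counts are those of the mouse gene, to which human reads may align in part, and give no measure of plasmid expression. The related gene Cdnf lay at 0.0872 to 0.224 RPKM in control and at 0.0498 to 0.246 RPKM in MANF livers, too low to be tested.

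Of 9978 genes 5 were called (0.0501%), and 3 of them, Nr1d1, Tymp and Ugt2b37, rested on 37 to 1962 recovered reads per library. Nr1d1 codes for REV-ERB alpha, a nuclear receptor that represses clock and metabolic genes, and Tymp for thymidine phosphorylase, which breaks down thymidine, and both rose. Ugt2b37, a UDP-glucuronosyltransferase of the family that makes steroids and drugs water-soluble, fell. In all 3 genes every MANF library lay on one side of every control library, which held upwards for 2.4% and downwards for 6.66% of all tested genes.

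Nr1d1 (chromosome 11, 98767932 to 98775333, minus strand) was read at 8.08, 5.81, 6.20 and 5.73 RPKM in control and at 24.4, 15.8, 19.98 and 14.98 RPKM in MANF livers. Every MANF library was above every control, and control replicate 1 was the highest control. Nr1d1 rose 2.91-fold on the group means, from 6.46 ± 1.10 to 18.8 ± 4.35 RPKM (SD, n = 4), a log2 difference of 1.46 (SE 0.17, limma adjusted p = 0.013).

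Tymp (chromosome 15, 89371931 to 89377039, minus strand) was read at 3.05, 3.21, 4.45 and 3.15 RPKM in control and at 9.51, 9.48, 7.79 and 7.11 RPKM in MANF livers. Control replicate 3 was the highest control and was still below every MANF library. Tymp rose 2.45-fold, from 3.46 ± 0.663 to 8.47 ± 1.22 RPKM (SD, n = 4), a log2 difference of 1.18 (SE 0.14, limma adjusted p = 0.0152).

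Ugt2b37 (chromosome 5, 87240493 to 87254804, minus strand) was read at 8.64, 6.59, 4.34 and 4.09 RPKM in control and at 0.930, 1.32, 1.36 and 0.784 RPKM in MANF livers. Every MANF library was far below every control, and control replicates 1 and 2 were the highest. It fell to 0.186 of the control mean, from 5.92 ± 2.14 to 1.10 ± 0.288 RPKM (SD, n = 4), a log2 difference of -1.96 (SE 0.23, limma adjusted p = 0.013). Members of the Ugt2b family are close in sequence, and the handling of reads shared among them is not given in the sources used here. Its neighbour in the family, Ugt2b38, was read at 17.2, 21.3, 30.6 and 20.3 RPKM in control and 9.37, 14.2, 11.7 and 12.3 RPKM in MANF livers, again without overlap, with a log2 difference of -0.86 that was not called (limma adjusted p = 0.171).

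Without young MANF replicate 3, all 3 genes were called as before among 7 calls (0.0702%), with limma adjusted p of 0.0383 for Nr1d1 and 0.0355 for Tymp and Ugt2b37. All 3 were also called in a voom fit of the whole reads recovered from the RPKM, with adjusted p of 0.0323 for Nr1d1 and 0.0435 for Tymp and Ugt2b37. Nr1d1 was not called without control replicate 2 or 4, Ugt2b37 without control replicate 2 or MANF replicate 1, and Tymp without control replicate 1, 2 or 4 or MANF replicate 1 or 2, where limma adjusted p reached 0.0832, 0.0832 and 0.111.

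The other 2 called entries, both lower in MANF livers, rested on 1 or 2 reads per library. Snord34, a small nucleolar RNA of 70 bases encoded within the Rpl13a gene, had 1 read in each control library and 0 in each MANF library. Mir5100, a microRNA precursor of 64 bases, had 1, 1, 2 and 1 reads in control replicates 1 to 4 and 0 in each MANF library. A read on so short an entry counts for more than 0.5 RPKM, so both passed the filter through the control group alone. Neither was called by voom (adjusted p = 0.279 and 0.243), and neither entered the fit with a minimum of 1 RPKM or of 10 reads, so no change of these RNAs is read from them.

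**Figure D1:**
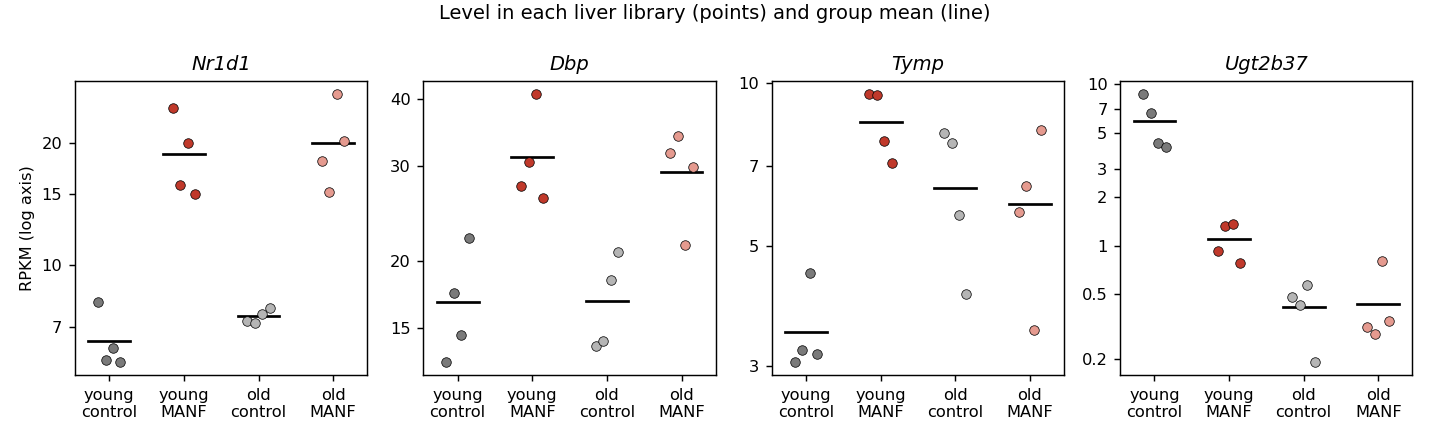
RPKM of Nr1d1, Dbp, Tymp and Ugt2b37 in all 16 liver libraries on log axes, each point 1 animal and each line the mean of the 4 animals of a group. Young MANF and young control animals do not overlap in any of the 4 genes; Nr1d1 is also separated in old animals, while Tymp and Ugt2b37 overlap there.

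Nr1d1 belongs to the circadian clock of the liver, in which CLOCK and BMAL1 switch on the Per, Cry, Nr1d1 and Dbp genes, and REV-ERB alpha in turn represses a further set that includes Cry1 and E2f8. Among the 13 tested genes of the arm driven by E-boxes and D-boxes, Nr1d1 was the only one called in young livers. Dbp, a transcription factor gene of the same arm, was read at 12.97, 17.4, 14.6 and 22.0 RPKM in control and 27.5, 30.5, 40.7 and 26.1 RPKM in MANF livers. Every MANF library was above every control library, and the log2 difference of 0.89 (SE 0.18) was not called (limma adjusted p = 0.171).

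The period genes of the same arm had differences of the opposite sign. Per2 was read at 4.13, 3.96, 4.81 and 3.98 RPKM in control and 2.42, 3.13, 2.06 and 3.96 RPKM in MANF livers, without overlap, a log2 difference of -0.51 (limma adjusted p = 0.324). Per3 was at 3.16 to 4.47 RPKM in control and 1.87 to 3.29 RPKM in MANF livers, with a log2 difference of -0.44 and MANF replicate 3 the lowest. Of the 13 genes, 3 had a log2 difference above 0, and the median was -0.24 (-0.11 without MANF replicate 3, when 6 were above 0). The positive limb and the genes repressed by REV-ERB alpha had all 4 reported members below 0, with a median of -0.31 that stayed between -0.37 and -0.26 when each library was left out.

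In this set E2f8, a repressor of the cell cycle, was read at 1.504, 1.45, 1.32 and 1.63 RPKM in control and 1.15, 1.04, 1.22 and 0.825 RPKM in MANF livers, with no overlap and a log2 difference of -0.35 (limma adjusted p = 0.324). Cry1, a clock repressor, had a log2 difference of -0.33 and Rora, a nuclear receptor that competes with REV-ERB alpha for its sites, of -0.27 (-0.14 without MANF replicate 3), neither of them called. Clock genes swing with the hour of the day. The hour was not among the labels, and its part in these differences was not tested.

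In old livers Nr1d1 was at 7.25, 7.17, 7.54 and 7.79 RPKM in control and 18.1, 15.2, 26.4 and 20.3 RPKM in MANF animals, a log2 difference of 1.34 (limma adjusted p = 0.00345 over 10677 genes tested in all 16 libraries, of which 0.103% were called). The test of the difference between the ages gave an unadjusted p of 0.632. Dbp had an old log2 difference of 0.78 (adjusted p = 0.137, unadjusted p of the difference between ages 0.702) and Per2 of -0.45 (0.853). None of these 17 clock genes passed the test of the difference between ages in limma, and the smallest unadjusted p was 0.00902, for Cry2.

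**Figure D2:**
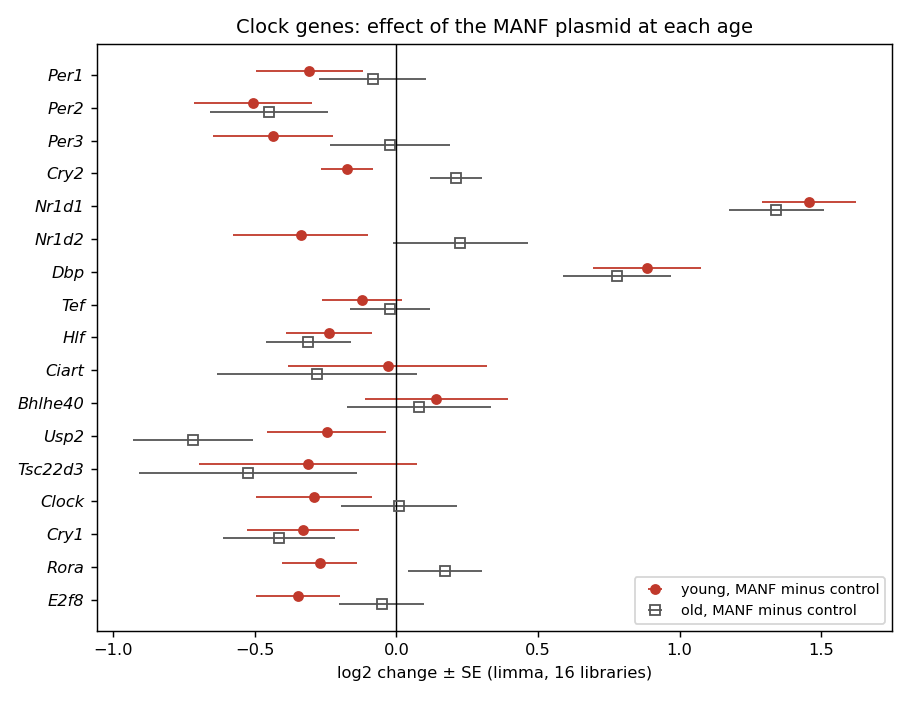
Log2 difference between MANF and control livers ± SE for 17 clock genes in young animals (filled circles) and old animals (open squares), from 1 limma model of all 16 libraries. Nr1d1 and Dbp lie to the right of 0 at both ages, Per2 to the left at both ages, and the positive limb at the bottom lies left of 0 in young animals.

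Acute-phase genes formed the group with the lowest median among the lists with at least 5 tested genes. All 25 tested members had a log2 difference below 0, while 32.8% of all tested genes were above 0, and none was called by limma. Their median was -0.46, and it was -0.52 without MANF replicate 3, -0.36 under median scaling and -0.49 in voom, with all 25 members below 0 each time. At an unadjusted p below 0.05, 16 of the 25 were lower and 0 higher, where 8.67% and 3.64% of all tested genes were. Every MANF library was below every control library in 7 of the 25 members, beside 6.66% of all tested genes. A log2 difference of -1 or less was found in 6 members, and in 37 of the 9978 tested genes (0.371%).

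The serum amyloid A genes Saa1 and Saa2, whose products ride on high-density lipoprotein during inflammation, had the widest differences. Saa2 (chromosome 7, 46751790 to 46754313, plus strand) was read at 72.6, 115, 8.08 and 92.6 RPKM in control and at 3.12, 4.37, 2.996 and 6.36 RPKM in MANF livers. Control replicate 3 stood far below the other 3 controls and yet above every MANF library. The log2 difference was -3.49 (SE 0.69, limma adjusted p = 0.159), and the MANF mean was 0.0583 of the control mean. Saa1 (chromosome 7, 46740497 to 46742980, minus strand) was read at 152, 219.9, 25.2 and 166 RPKM in control and at 14.9, 14.2, 8.03 and 24.6 RPKM in MANF livers. Control replicate 3 was again the lowest control and just above the highest MANF library. Its log2 difference was -2.88 (SE 0.60, limma adjusted p = 0.175).

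The genes lie next to each other on chromosome 7 and are copies of one another, so reads shared between them may have been divided by the counting. Their promoters are shown because both genes had the same pattern over the 8 animals. The windows are the 250 bases before the RefSeq start of each gene (GRCm38.p6). They lie at chr7:46742981-46743230 on the minus strand for Saa1 and at chr7:46751583-46751832 on the plus strand for Saa2. The RefSeq start of Saa2 lies inside the gene as positioned above, so the end of its window overlaps that gene. Laid over each other without gaps, the windows were identical at 197 of 249 aligned bases (79.1%). Saa2 holds an extra c (cttgcccctcacc against cttgccctcacc), which puts the bases after it out of register. The share therefore understates how alike the windows are. Capitals mark the only match in either window to 2 motifs searched on both strands. These were TTGNNCAA for the C/EBP factors, and for NF-kB the letters GGG, any 2 bases and TTTCC.
Saa1: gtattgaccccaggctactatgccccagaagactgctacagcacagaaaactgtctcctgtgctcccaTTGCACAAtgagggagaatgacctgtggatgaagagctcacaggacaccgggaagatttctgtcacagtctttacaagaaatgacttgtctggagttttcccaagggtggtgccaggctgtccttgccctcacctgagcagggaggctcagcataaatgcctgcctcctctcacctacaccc
Saa2: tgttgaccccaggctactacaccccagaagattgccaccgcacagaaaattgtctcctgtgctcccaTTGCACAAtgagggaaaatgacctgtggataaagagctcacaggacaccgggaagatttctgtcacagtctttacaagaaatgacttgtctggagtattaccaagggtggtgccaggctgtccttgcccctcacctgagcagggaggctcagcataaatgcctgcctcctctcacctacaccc
Both windows hold the C/EBP letters in the same form, and neither holds the NF-kB letters. The C/EBP letters begin 182 bases before the RefSeq start in Saa1 and 183 bases before it in Saa2. RefSeq promoters were matched for 20 of the 25 tested acute-phase genes. The C/EBP letters were found in 8 of the 20 (Fga, Fgb, Lcn2, Orm2, Orm3, Saa1, Saa2 and Saa4), against 5.65% of 32851 promoters, and the NF-kB letters in 2 (Serpina3n and Steap4), against 1.41%. A match of letters is a description of the window and not a binding site.

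Further members followed the same division of animals. Lcn2, lipocalin 2, which binds bacterial iron carriers, was read at 6.01, 18.1, 1.63 and 12.1 RPKM in control and 0.730, 0.602, 0.926 and 0.887 RPKM in MANF livers, a log2 difference of -2.56 (limma adjusted p = 0.176). Orm2, an orosomucoid of plasma, was at 42.8, 69.1, 11.1 and 40.8 RPKM in control and 6.62, 4.02, 6.93 and 10.7 RPKM in MANF livers, a log2 difference of -2.27 (adjusted p = 0.177). Control replicate 3 was the lowest control in both, and neither group overlapped the other. Saa3 was at 2.10 to 13.4 RPKM in control and 1.45 to 2.12 RPKM in MANF livers (-1.65), where control replicate 3 lay within the MANF range.

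Abundant secreted members had smaller differences with the same sign. Serpina3n, a protease inhibitor, was read at 237, 205, 166 and 323 RPKM in control and 102, 91.7, 137 and 131 RPKM in MANF livers (-0.98, limma adjusted p = 0.171), and Serpina3m of the same cluster at 100.3, 87.9, 96.2 and 110.0 RPKM in control and 48.7, 46.5, 57.5 and 78.6 RPKM in MANF livers (-0.79, adjusted p = 0.159). Neither gene overlapped between groups. Haptoglobin, Hp, which binds free haemoglobin, averaged 1861 ± 474 RPKM in control livers and 1212 ± 142 RPKM in MANF livers (SD, n = 4; log2 difference -0.59), and the constitutive Saa4 averaged 123 ± 15.2 and 96.4 ± 7.72 RPKM (-0.35). Steap4, a metalloreductase, was at 27.8 to 50.7 RPKM in control and 19.4 to 26.5 RPKM in MANF livers (-0.87), and the serum amyloid P gene Apcs at 44.5 to 139.7 in control and 53.5 to 62.8 RPKM in MANF livers (-0.63). Socs3, which feeds back on interleukin-6 signalling, was at 1.60 to 2.23 in control and 0.874 to 1.79 RPKM in MANF livers (-0.46, adjusted p = 0.349).

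Calls among these genes depended on the setting. Without control replicate 3, when 0.16% of all tested genes were called, 7 of the 25 acute-phase genes were called as lower by limma, Saa1, Saa2, Saa3, Orm2, Lcn2, Apcs and Steap4. The limma adjusted p was 0.000362 and the log2 difference -4.35 for Saa2, and 0.00313 and -3.58 for Saa1. Control replicate 3 was the lowest control for Saa1 and Saa2, so leaving it out by itself widens their difference and narrows the control spread. A fit that weights each library by its spread called 12 of the 25, among 113 calls in all (1.13%), with weights of 0.159 for MANF replicate 3, 0.520 for control replicate 1, 0.800 for control replicate 3 and 1.25 to 2.65 for the other 5. Serpina3m was called without MANF replicate 4, Orm3 without both MANF replicate 3 and control replicate 1, and 0 of the 25 in the remaining alternatives. The median of the members relative to the control mean was -0.35 in control replicate 3 and 0.05, 0.15 and 0.23 in control replicates 1, 2 and 4. It was -0.51, -0.65, -0.52 and -0.35 in MANF replicates 1 to 4, so control replicate 3 lay level with MANF replicate 4.

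In old livers 14 of the 25 acute-phase genes had a MANF minus control difference above 0, with a median of 0.05, where 59.1% of the 10677 genes tested at both ages were above 0. The old log2 difference was -0.44 for Saa2, -0.43 for Saa1 and 0.03 for Lcn2. Tests of the difference between ages gave unadjusted p-values of 0.0215, 0.0433 and 0.0612, none of which passed after adjustment over 10677 genes (0 called, 0.0%; adjusted p = 0.594 for Saa2).

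**Figure D3:**
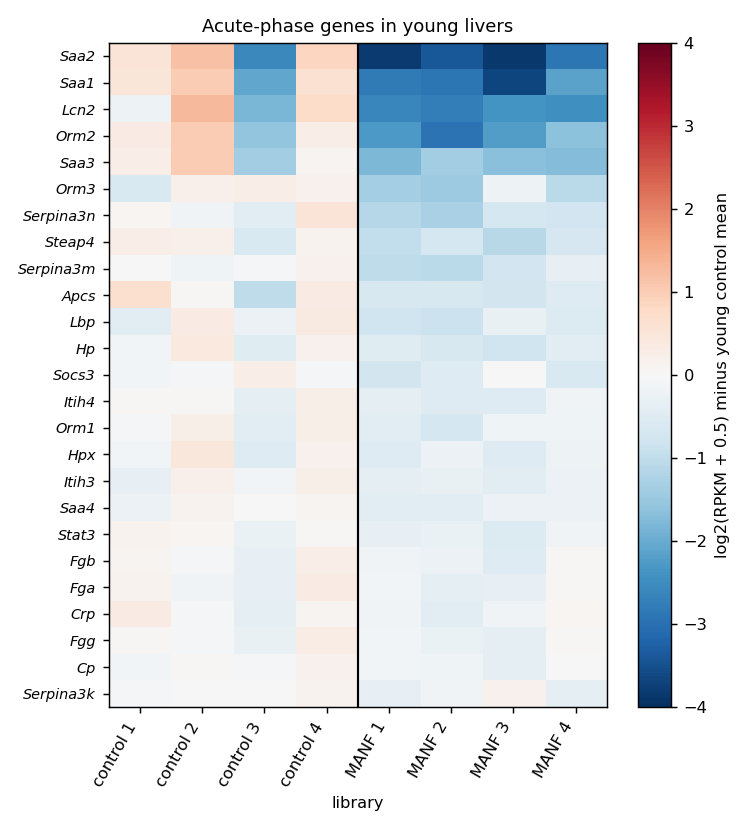
Heat map of the 25 tested acute-phase genes in the 8 young libraries, coloured by log2(RPKM + 0.5) minus the mean of the young controls and sorted by the MANF mean. The 4 MANF columns are blue for nearly all genes, and control replicate 3 is the control column closest to them for Saa2, Saa1, Lcn2, Orm2 and Saa3.

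Markers of immune and other non-hepatocyte cells were read beside the acute-phase genes. Of 3 tested neutrophil markers (Lcn2 among them) 0 were above 0, and of 15 Kupffer cell markers 2 were, with a median of -0.25 and none called by limma or at an unadjusted p below 0.05. The summed level of 17 Kupffer markers in the table was 117 to 232 RPKM in control and 80.9 to 192 RPKM in MANF livers, and the median was -0.42 without MANF replicate 3, 0.08 without MANF replicate 1 and -0.15 with 5 above 0 under median scaling, so 1 library could turn its sign. Neutrophil markers summed to 2.93 to 24.4 and 2.15 to 4.16 RPKM, with 9 of 13 below 0.5 RPKM and 1 of these at 0 in all 8 libraries. T and NK cell markers summed to 2.48 to 13.7 RPKM in control and 1.87 to 2.89 RPKM in MANF livers, with 1 of 20 tested. The part of these cells in the acute-phase differences was not tested.

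Chemokines and cytokines had 4 of 14 tested members above 0 and a median of -0.34, which stayed between -0.40 and -0.27 when each library was left out. None was called, and 6 were lower and 0 higher at an unadjusted p below 0.05, as 8.67% and 3.64% of all tested genes were (4.48% and 7.96% under median scaling). Cxcl9, a chemokine induced by interferon gamma that draws T cells, was read at 4.79, 8.02, 3.32 and 4.80 RPKM in control and 1.38, 2.93, 2.81 and 2.65 RPKM in MANF livers. The groups did not overlap, and the log2 difference was -0.94 (limma adjusted p = 0.255). Spp1, osteopontin, was at 117, 54.0, 15.1 and 31.7 RPKM in control and 11.9, 12.5, 11.1 and 17.6 RPKM in MANF livers, with control replicate 1 far above the rest (-1.64, adjusted p = 0.308). Ccl6, a chemokine of myeloid cells, was at 2.27 to 5.05 in control and 0.555 to 2.94 RPKM in MANF livers (-1.06), and Csf1, the growth factor of macrophages, at 1.02 to 1.58 in control and 0.704 to 1.11 RPKM in MANF livers (-0.36).

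Interferon genes had small differences of the same sign. Of 26 tested type I interferon-stimulated genes 2 were above 0 (median -0.20, -0.11 with 4 above 0 without MANF replicate 3, and -0.10 with 6 above 0 under median scaling). Of 22 interferon gamma GTPases and MHC class I genes also 2 were (median -0.28, and -0.17 with 4 above 0 under median scaling). Among all tested genes 32.8% were above 0, and 52.4% under median scaling. Zbp1, a sensor of Z-form nucleic acid, was read at 2.68, 4.14, 1.86 and 2.77 RPKM in control and 0.933, 1.24, 0.893 and 1.53 RPKM in MANF livers, without overlap, a log2 difference of -1.003 (limma adjusted p = 0.159). Ifi27l2b was at 2.77 to 8.67 in control and 2.50 to 3.61 RPKM in MANF livers (-0.83). Psmb8, an immunoproteasome subunit, had a log2 difference of -0.47, and Gbp2, an interferon-induced GTPase, of -0.58. In old livers 25 of the same 26 type I genes were above 0, with a median of 0.29, beside 59.1% of all genes tested there. For Ifi27l2b, at 1.36 in old livers, the limma test of the difference between ages gave an unadjusted p of 0.00254 (adjusted p = 0.594).

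Stellate cell and matrix genes had 3 of 18 tested members above 0, a median of -0.28 and a summed level of 92.5 to 144 RPKM in control against 79.4 to 92.2 RPKM in MANF livers. The median was -0.16 without control replicate 2, and -0.17 with 6 above 0 under median scaling. None was called by limma, and 3 were lower and 0 higher at an unadjusted p below 0.05, beside 8.67% of all tested genes lower. Timp2, an inhibitor of matrix metalloproteinases, was at 1.56 to 2.85 RPKM in control and 1.11 to 1.62 RPKM in MANF livers (-0.45), Lrat, which makes the retinyl esters stored in stellate cells, at 1.90 to 3.401 in control and 1.19 to 2.16 RPKM in MANF livers (-0.50), and the collagen gene Col3a1 at 1.04 to 3.51 in control and 1.01 to 1.46 RPKM in MANF livers (-0.60). Their groups overlapped. In old livers all 18 were above 0 (median 0.50), beside 59.1% of all genes tested there. The old median was not recomputed without old control replicate 4, which stood apart from its group, or under median scaling. Lrat had an old log2 difference of 0.83 and an unadjusted p of 0.000648 for the difference between ages (adjusted p = 0.461), and Timp2 of 0.41 (0.0063).

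Endothelial markers had the opposite sign in young livers. All 17 tested genes of sinusoidal and other endothelium, the cells that line the blood channels between hepatocyte plates, were above 0, with a median of 0.27 (0.19 without MANF replicate 4 and 0.40 without MANF replicate 1) and 0.37 under median scaling. None was called, and 6 were higher at an unadjusted p below 0.05, beside 3.64% of all tested genes (7.96% under median scaling). Oit3, a protein secreted by sinusoidal cells, was read at 2.60, 3.05, 2.21 and 2.73 RPKM in control and 2.90, 4.61, 5.36 and 5.34 RPKM in MANF livers (0.66, limma adjusted p = 0.25), and Bmp2, the signal by which these cells set hepcidin in hepatocytes, at 1.26, 1.61, 1.08 and 1.10 RPKM in control and 1.53, 1.76, 2.03 and 2.89 RPKM in MANF livers (0.52, adjusted p = 0.324). MANF replicate 1 was within the control range for both. Endoglin, Eng, had a log2 difference of 0.56 (0.38 without MANF replicate 3) and the VEGF receptor gene Kdr of 0.39.

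The endothelial values were uneven among the MANF animals. The median of the 17 genes relative to the control mean was -0.09 in MANF replicate 1, 0.30 in replicate 2, 0.50 in replicate 3 and 0.47 in replicate 4, against -0.08 to 0.18 in the control libraries. The summed level of 19 markers was 36.2 to 47.8 RPKM in control and 39.0 to 73.3 RPKM in MANF livers, highest in MANF replicate 3, and without that animal the median was 0.19. In old livers 4 of the 17 were above 0 (median -0.11), beside 59.1% of all genes tested there. The unadjusted limma p for a difference between ages was 0.0133 for Oit3 and 0.0137 for Bmp2. Red blood cell and platelet genes were above 0 in 5 of 6 tested members, with a median of 0.38, the highest of the lists with at least 5 tested genes. It was 0.11 without control replicate 3 and 0.82 without control replicate 2. The part of blood left in the tissue in the endothelial values was not tested.

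**Figure D4:**
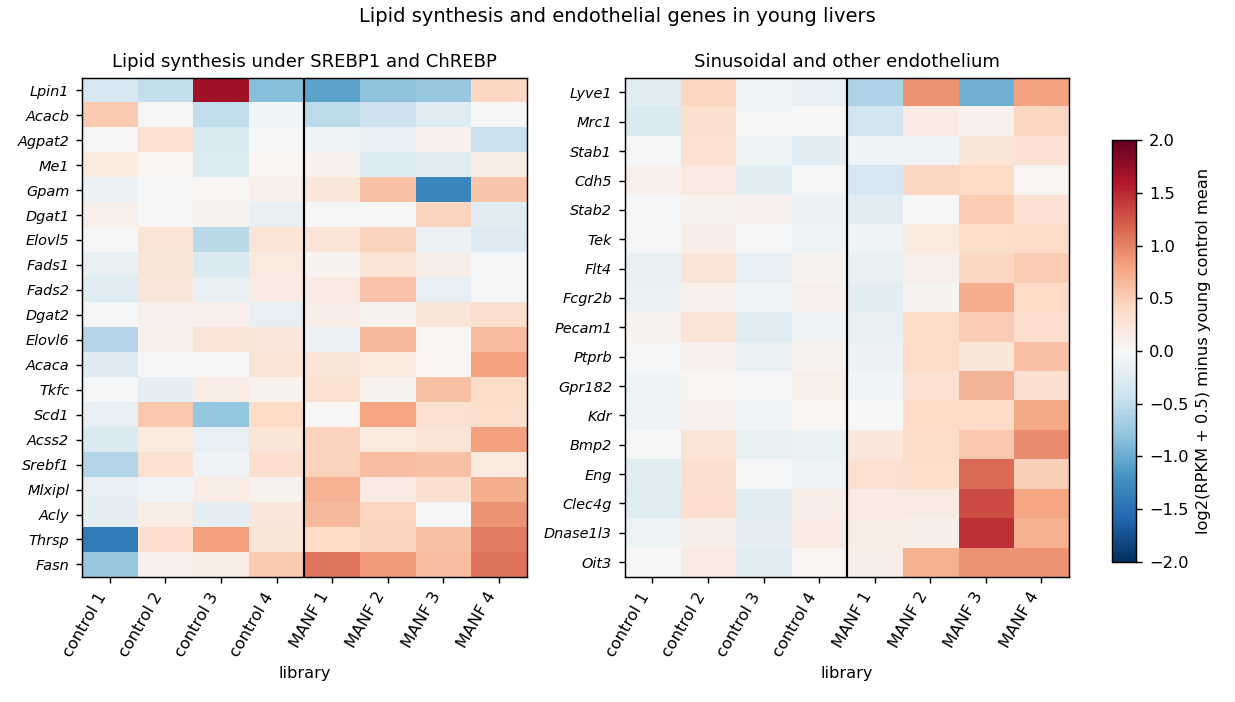
Heat maps of 20 lipid synthesis genes (left) and 17 endothelial genes (right) in the 8 young libraries, coloured by log2(RPKM + 0.5) minus the mean of the young controls. Fasn, Acly, Mlxipl and Srebf1 are red in most MANF columns, and most endothelial genes are red in MANF replicates 2 to 4, with Lyve1 blue in replicates 1 and 3, while MANF replicate 1 holds both red and blue genes.

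Genes of fatty acid synthesis, which SREBP-1 and the sugar sensor ChREBP control in hepatocytes, had 16 of 20 tested members above 0 and a median of 0.25 (0.32 without MANF replicate 3 and 0.13 without control replicate 1). None was called by limma, and 6 were higher and 0 lower at an unadjusted p below 0.05, beside 3.64% and 8.67% of all tested genes (7.96% and 4.48% under median scaling). Fasn, fatty acid synthase, was read at 7.22, 13.4, 14.0 and 18.4 RPKM in control and 27.0, 23.2, 19.7 and 27.5 RPKM in MANF livers. The groups did not overlap, and the log2 difference was 0.91 (SE 0.24, limma adjusted p = 0.239). Mlxipl, the gene of ChREBP, was at 23.2, 25.1, 28.9 and 27.3 RPKM in control and 42.5, 29.7, 32.5 and 43.6 RPKM in MANF livers, also without overlap (0.48, adjusted p = 0.302). Tkfc, which phosphorylates the trioses of fructose breakdown, had a log2 difference of 0.33, and Acss2, an acetyl-CoA synthetase, of 0.44. In old livers the median was 0.23, with 13 of 20 above 0, beside 59.1% of all genes tested there.

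Among genes of glucose handling, Foxo1, the transcription factor that drives glucose output in the fasted state, was at 3.72 to 4.51 RPKM in control and 1.69 to 3.88 RPKM in MANF livers (-0.51, and -0.32 without MANF replicate 3), and its coactivator gene Ppargc1a at 0.955 to 2.13 in control and 0.337 to 1.36 RPKM in MANF livers (-0.61, and -0.39 without that library). Pdk4, which blocks the use of pyruvate in fasting, was at 5.16, 3.04, 1.45 and 0.566 RPKM in control and 1.30, 0.741, 0.177 and 0.823 RPKM in MANF livers, with broad overlap (-1.10, limma adjusted p = 0.398). MANF replicate 3 was the lowest of the 8 libraries for all 3 of these fasting genes. The list of gluconeogenesis, glycolysis and insulin signalling genes, which holds Foxo1 and Ppargc1a but not Pdk4, had 12 of 19 members above 0. Its median was 0.08, and 0.03 without MANF replicate 4.

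Lipid transport and cholesterol genes were divided. Fabp1, the fatty acid binding protein of liver, averaged 5135 ± 446 RPKM in control livers and 6662 ± 956 RPKM in MANF livers (SD, n = 4), without overlap (0.37, limma adjusted p = 0.336). Apoa4, an apolipoprotein of the fasted liver, was at 72.5 to 253 in control and 67.7 to 112 RPKM in MANF livers (-0.73). Srebf2, the master gene of cholesterol synthesis, was read at 5.65, 5.90, 5.17 and 6.41 RPKM in control and 4.70, 4.59, 3.54 and 4.65 RPKM in MANF livers, without overlap (-0.37, adjusted p = 0.32). The 21 cholesterol genes had a median of -0.11 with 8 above 0, and of 0.11 with 16 above 0 without MANF replicate 3, so 1 library set their sign. Nuclear subunits of oxidative phosphorylation had 35 of 38 members above 0, beside 32.8% of all tested genes. Their median was 0.12, 0.07 without MANF replicate 3 and 0.05 under quantile normalization. At an unadjusted p below 0.05, 1 of the 38 was higher and 0 were lower. Under median scaling 37 were above 0, as were 41 of 42 cytosolic ribosomal and 29 of 31 proteasome genes, beside 52.4% of all tested genes. Fatty acid oxidation had 14 of 27 above 0, with a median of 0.02 that ranged from -0.03 to 0.11 when each library was left out.

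The ER was examined because MANF works there. ER chaperones and folding enzymes had 8 of 18 tested members above 0 and a median of -0.03, which was 0.07 with 11 above 0 under median scaling, so the sign depended on the scaling, as it did on leaving out MANF replicate 2 (0.03). Among all tested genes 32.8% were above 0, and 52.4% under median scaling. None of the 18 was called by limma. At an unadjusted p below 0.05, 1 was higher and 2 were lower, beside 3.64% and 8.67% of all tested genes. Hspa5 is the gene of BiP. It was read at 124, 74.6, 80.8 and 73.9 RPKM in control and 95.7, 65.6, 59.2 and 93.4 RPKM in MANF livers. The groups overlapped in part, with control replicate 1 the highest and MANF replicates 2 and 3 below every control. The log2 difference of Hspa5 was -0.17 (SE 0.21), and it was 0.01 without control replicate 1 and -0.04 without MANF replicate 3. Sdf2l1, a BiP cochaperone, was at 8.10, 7.13, 5.74 and 7.27 RPKM in control and 14.0, 7.71, 8.58 and 12.1 RPKM in MANF livers (0.52, limma adjusted p = 0.342), whereas Dnajb9, another, was at 41.0, 18.4, 29.8 and 20.3 RPKM in control and 17.6, 21.7, 9.53 and 16.5 RPKM in MANF livers (-0.71, adjusted p = 0.373).

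Genes of ER-associated degradation and the XBP1 arm had 8 of 18 above 0, beside 32.8% of all tested genes. The median was -0.04, 0.04 without control replicate 1 and -0.06 without MANF replicate 3. Under median scaling it was 0.07, with 11 above 0, beside 52.4% of all tested genes. Derl3, a channel component of that pathway, was at 0.791 to 1.97 RPKM in control and 1.55 to 3.57 RPKM in MANF livers (0.63). Ssr1, a subunit of the translocon-associated complex, had a log2 difference of -0.35, the oxidase gene Ero1l of -0.49 (-0.31 without MANF replicate 3) and the proline isomerase gene Ppib of 0.20. In old livers 16 of the 18 chaperone genes were above 0 with a median of 0.31, beside 59.1% of all genes tested there. Hspa5 had an old log2 difference of 0.64 and an unadjusted p of 0.00919 for the difference between ages (adjusted p = 0.594), Ssr1 of 0.24 (0.00638) and Manf of 1.02 (0.011).

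In the integrated stress response, the arm that runs through the factor ATF4, Trib3, a pseudokinase that damps AKT signalling, was read at 1.14, 1.10, 1.77 and 1.22 RPKM in control and 2.85, 2.56, 4.18 and 2.36 RPKM in MANF livers. All MANF animals were above all controls (0.94, SE 0.17, limma adjusted p = 0.151; adjusted p = 0.0196 with weighted libraries). Shmt2, a mitochondrial enzyme of serine breakdown, was at 46.2 to 53.9 in control and 58.1 to 75.6 RPKM in MANF livers (0.34), and Atf4 itself at 33.7 to 41.7 in control and 28.1 to 36.4 RPKM in MANF livers (-0.26). The 12 tested members had 7 above 0 and a median of 0.01 (-0.02 without MANF replicate 3, -0.16 without control replicate 4 and 0.12 without control replicate 1), with none called. Trib3 had nearly the same value in old livers, 0.93 (unadjusted p of the difference 0.988). Among cytosolic and mitochondrial heat shock genes 2 of 15 were above 0, with a median of -0.22 that was -0.13 without MANF replicate 3, -0.12 under median scaling and 0.05 without control replicate 1, so 1 library could turn its sign. One of those above 0 was Hspa8, the constitutive HSC70 gene, at 65.4 to 122 RPKM in control and 129 to 138 RPKM in MANF livers (0.45).

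Genes that are higher in male than in female mouse liver, through the pulsed release of growth hormone, had 12 of 19 members above 0 and a median of 0.15 (0.05 without control replicate 2). None was called by limma. Of 20 genes higher in female liver, 14 were below 0.5 RPKM in all 8 young libraries, and 6 were tested. Of these 6, 3 were above 0, with a median of 0.14 (-0.02 without MANF replicate 2 and 0.09 without MANF replicate 3). Hsd3b5, a steroid dehydrogenase, was read at 38.6, 28.9, 74.5 and 65.8 RPKM in control and 109.9, 79.9, 122 and 126 RPKM in MANF livers (1.15, SE 0.28, adjusted p = 0.21). Elovl3, a fatty acid elongase, was at 35.5, 35.3, 29.9 and 17.7 RPKM in control and 93.9, 62.6, 108 and 37.8 RPKM in MANF livers (1.28, SE 0.32, adjusted p = 0.221). Neither overlapped between groups, although the spread within groups was wide. Cyp2u1 had a log2 difference of 0.61, and Ugt2b38, given above, the opposite sign within the same list.

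In the growth hormone and IGF1 axis, Bcl6, a repressor that favours the male pattern, was read at 1.77, 0.813, 0.914 and 1.13 RPKM in control and 5.57, 3.15, 1.12 and 6.74 RPKM in MANF livers. MANF replicate 3 was within the control range and the other 3 MANF animals above it (1.31, limma adjusted p = 0.319; 1.75 and 0.0712 without that animal). Igfbp2, which binds IGF1 in plasma, was at 63.4, 63.7, 119 and 80.6 RPKM in control and 123, 138, 162 and 125 RPKM in MANF livers, without overlap (0.78, adjusted p = 0.21). Igf1 itself was at 46.9 to 56.3 RPKM in control and 37.8 to 47.6 RPKM in MANF livers (-0.32). Major urinary protein genes, close copies that liver secretes for scent marking, had 3 of 18 members above 0 and a median of -0.32 (-0.48 without MANF replicate 3 and -0.10 without MANF replicate 2), with Mup15 at -0.71 and no member below an unadjusted p of 0.05.

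Bile acid and drug metabolism showed single genes apart from their lists. Abcb11, the bile salt export pump, was read at 44.6, 46.9, 35.1 and 52.3 RPKM in control and 74.1, 65.7, 60.5 and 70.6 RPKM in MANF livers, without overlap (0.60, SE 0.13, limma adjusted p = 0.178), and had 0.53 in old livers. Cyp8b1, the sterol hydroxylase needed for cholic acid, was at 116 to 170.2 RPKM in control and 129 to 197 RPKM in MANF livers (0.32), against an old log2 difference of -1.20 (unadjusted p of the difference between ages 0.00162, adjusted p = 0.594). Cyp3a13 was at 64.5, 59.4, 58.8 and 61.4 RPKM in control and 38.4, 43.0, 30.7 and 43.9 RPKM in MANF livers, without overlap (-0.65, adjusted p = 0.151). Cyp2c55 was at 0.739 to 0.997 in control and 1.04 to 2.51 RPKM in MANF livers (0.70). The metallothionein genes Mt1 and Mt2, which bind zinc and copper, were at 175, 108, 62.5 and 85.4 RPKM and 127, 103, 78.9 and 29.2 RPKM in control and at 43.8, 63.3, 34.5 and 36.4 RPKM and 34.6, 38.3, 23.0 and 33.4 RPKM in MANF livers. Their log2 differences were -1.20 and -1.21, with overlap through control replicate 3 for Mt1 and replicate 4 for Mt2, and limma adjusted p of 0.21 and 0.321.

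Plasma proteins outside the acute phase had mostly positive differences, with 18 of 24 apolipoproteins and carriers above 0, beside 32.8% of all tested genes. The median was 0.15, 0.10 without MANF replicate 3, 0.25 under median scaling and 0.04 under quantile normalization, so its size depended on the scaling. At an unadjusted p below 0.05, 5 were higher and 1 lower, beside 3.64% and 8.67% of all tested genes (7.96% and 4.48% under median scaling). Afamin, Afm, a carrier of vitamin E, was read at 39.8, 37.4, 35.3 and 38.9 RPKM in control and 49.4, 43.1, 45.6 and 50.2 RPKM in MANF livers (0.31, limma adjusted p = 0.302). Transthyretin, Ttr, which falls in plasma during an acute phase, averaged 2657 ± 194 RPKM in control livers and 3603 ± 749 RPKM in MANF livers (SD, n = 4; 0.42), and Apoa1, the main protein of high-density lipoprotein, averaged 3938 ± 582 and 5147 ± 580.3 RPKM (0.39). Afm and Ttr did not overlap between groups. Complement and coagulation genes had 15 of 32 above 0 (median -0.01, 0.09 under median scaling and 0.03 without MANF replicate 3).

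**Figure D5:**
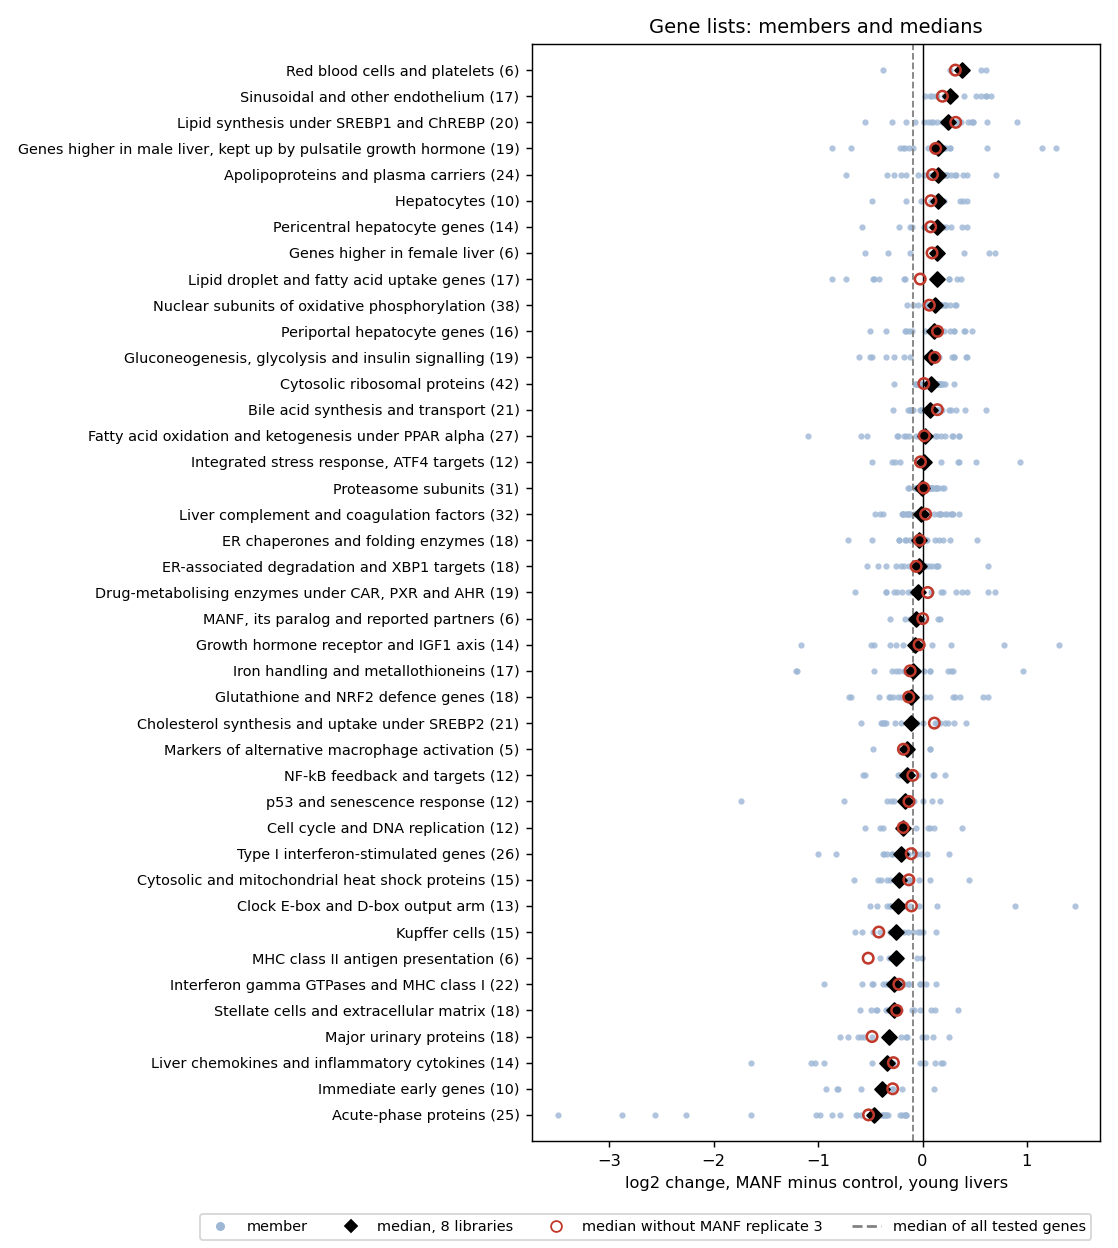
Log2 difference between young MANF and young control livers for every tested member (blue points) of the 41 lists with at least 5 tested genes, with the list median in all 8 libraries (diamond), without young MANF replicate 3 (open circle) and the median of all tested genes (dashed line). Acute-phase proteins are at the bottom with a median of -0.46, endothelium near the top at 0.27, and the circle of the cholesterol list lies across 0 from its diamond.

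Immediate early and growth-arrest genes had 1 of 10 and 3 of 12 members above 0, with medians of -0.39 and -0.16, where 32.8% of all tested genes were above 0. The growth-arrest median was -0.03 without control replicate 1 and -0.06 under median scaling. Jun, a subunit of the AP-1 factor, was read at 1.403 to 4.47 RPKM in control and 1.13 to 1.84 RPKM in MANF livers (-0.82), and Btg2, an antiproliferative gene, at 2.32 to 7.39 in control and 1.52 to 4.91 RPKM in MANF livers (-0.81). Gadd45g, a stress sensor gene, was at 18.3, 20.7, 18.9 and 13.8 RPKM in control and 0.718, 9.54, 6.61 and 9.88 RPKM in MANF livers, without overlap but with MANF replicate 1 far below the other 3 (-1.73, limma adjusted p = 0.324). Mdm2, which marks p53 for destruction, had a log2 difference of -0.34. Plk3, a stress kinase, was at 27.5, 42.6, 32.9 and 35.7 RPKM in control and 14.3, 17.2, 24.2 and 13.4 RPKM in MANF livers, without overlap (-1.004, adjusted p = 0.152), and passed the test without MANF replicate 3 (adjusted p = 0.0383).

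Among the remaining genes of at least 1 RPKM, those with the smallest p included several with narrow spreads. Slc45a3, a sugar transporter gene, was read at 6.21, 6.50, 6.31 and 4.87 RPKM in control and 3.25, 3.47, 3.16 and 3.58 RPKM in MANF livers (-0.74, SE 0.11, limma adjusted p = 0.0778). Zfp36l2, whose protein brings about the decay of AU-rich mRNAs, was at 5.91, 6.02, 5.44 and 5.11 RPKM in control and 3.59, 2.66, 3.09 and 3.35 RPKM in MANF livers (-0.74, adjusted p = 0.0778). Tmem41a, a membrane protein gene, was at 6.25 to 6.77 in control and 3.07 to 4.68 RPKM in MANF livers (-0.74) and passed the test without MANF replicate 3 (adjusted p = 0.0355). Wnt5b, a Wnt ligand gene, had a log2 difference of -0.71, the linker histone gene Hist1h1c of -1.04 and Trp53inp2, an autophagy gene, of -0.75. None of these 6 overlapped between groups, as held downwards for 6.66% of all tested genes, and the choice by smallest p favours such genes.

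On the higher side, the noncoding gene Hectd2os was read at 3.39, 2.90, 3.53 and 2.67 RPKM in control and 11.2, 6.06, 9.81 and 6.00 RPKM in MANF livers (1.23, SE 0.20, limma adjusted p = 0.116). Rdh16f2, of the retinol dehydrogenase family, was at 37.4, 41.6, 40.2 and 40.7 RPKM in control and 52.997, 58.3, 58.4 and 59.6 RPKM in MANF livers (0.51, adjusted p = 0.128), a small difference with a narrow spread. Sucnr1, the receptor for succinate, was at 5.96 to 9.37 in control and 11.7 to 15.9 RPKM in MANF livers (0.80), and Gstm7, a glutathione transferase, at 15.1 to 17.3 in control and 21.6 to 30.3 RPKM in MANF livers (0.61). Clec2h, a lectin-like gene, had a log2 difference of 1.12 and Isoc2b of 0.62. All 6 were above the controls in every MANF animal, as were 2.4% of all tested genes, and these too were chosen by p or size of change.

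Whether the plasmid acted differently in young and old livers was tested for 10677 genes in 1 model of the 16 libraries. By limma 0 genes passed after adjustment (0.0%), 894 had an unadjusted p below 0.05 (8.37%), and 6 passed when libraries were weighted by their spread. Ugt2b37, called in young livers, had the smallest p (1.5e-05, adjusted p = 0.16). It was read at 0.480, 0.431, 0.570 and 0.191 RPKM in old control and 0.315, 0.284, 0.807 and 0.344 RPKM in old MANF livers, a log2 difference of 0.02, so the young MANF mean lay between the young control mean and both old means. Tymp was at 8.08, 7.75, 5.69 and 4.08 RPKM in old control and 5.77, 6.44, 3.48 and 8.18 RPKM in old MANF livers, with overlap (-0.10, unadjusted p of the difference 0.00099, adjusted p = 0.532).

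Bmp5, a bone morphogenetic protein gene, was lower in every young MANF animal than in every young control (1.04 to 1.84 against 1.99 to 2.64 RPKM, log2 difference -0.56) and had 0.45 in old livers (unadjusted p of the difference 4.58e-05, adjusted p = 0.197). Car5a, the mitochondrial carbonic anhydrase, had 0.39 in young and -0.27 in old livers (5.54e-05 and 0.197). Hectd2os had 1.23 and -0.55 (0.000257). In the fit with all 16 libraries and equal weights no difference between the ages passed adjustment, so an effect in young livers that was not called in old ones is not shown to be particular to young animals.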

How the data were processed

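Flash-frozen liver gave Trizol RNA and TruSeq stranded mRNA libraries, per the labels' protocols. STAR 2.4.2a, HTSeq and mm10 are named, with no role or order, in the submitters' processing notes. The authors deposited RPKM values for 24010 entries and 16 libraries, and the treatment of reads that align to several genes is not given in the sources used here. Whole reads were recovered from the steps of the deposited RPKM (100% of 237209 values above 0 were whole within 0.001 reads, widened to at most 0.2 reads for large values), and 11.85 to 16.58 M reads per young library lay in listed genes.

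The 8 young libraries were fitted with limma 3.58.1 in R 4.3.3 on log2(RPKM + 0.5) with an intensity trend and no covariate, two-sided. Voom, used as an alternative, ran on the recovered reads. The difference between ages was fitted to all 16 libraries, and Manf was also compared by exact permutation. The analysis was tested on simulated data. Positions are those of GENCODE M21 (GRCm38), and promoters those of RefSeq (GRCm38.p6). The labels do not say more of the replicates than that there were 4 animals per group, so p-values measure the spread between these animals.

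The comparison, the 49 gene lists (923 symbols, of which 909 were in the table and 707 tested) and the genes named were chosen with earlier results of these data known. The rule took Manf and Cdnf, up to 10 genes per direction by size of change and then smallest p, up to 4 members of each list with at least 3 tested genes, and 5 genes for the difference between ages. It took 192 genes; 98 are named with values, and 10 of these were chosen after their values were seen (Snord34, Mir5100, Saa3, Saa4, Orm2, Apcs, Steap4, Hp, Plk3 and Cry2). A pair of genes belonging to these lists is not reported here and was left out of the list counts, but not of the fits. Lists share members, and their counts are descriptions. The alternatives with at least 10 reads in 4 libraries, with median scaling without young MANF replicate 3, and without both that library and young control replicate 1 were added after seeing the data.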

Additional observations from a re-analysis of the deposited data

Results flagged for a closer look

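Within groups of 4, a library was picked out when its gap to the nearest other library exceeded Dixon's 95% critical value as a share of the group's range, which chance gives in about 1 of 20 groups. This was so in 10 of 202 groups examined (4.95%), and no explanation was tested. Young MANF replicate 3 was picked out by its count of genes at 1 RPKM or more (7885, against 8376 to 8461 in the other young MANF libraries), by its place on the first principal component (-0.88, against -0.05 to 0.11) and by Srebf2 (3.54 RPKM, against 4.59 to 4.70). Young control replicate 3 was picked out by Steap4 (27.8 RPKM, against 47.2 to 50.7), Tymp (4.45 RPKM, against 3.05 to 3.21) and Socs3 (2.23 RPKM, against 1.60 to 1.68). Young control replicate 1 was high for Manf (14.4 RPKM, against 8.57 to 8.95), and young control replicate 4 low for Slc45a3 (4.87 RPKM, against 6.21 to 6.50). Young MANF replicate 1 was low for Cxcl9 (1.38 RPKM, against 2.65 to 2.93) and young MANF replicate 4 for Hist1h1c (11.2 RPKM, against 15.4 to 16.2).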

How the results depend on the processing

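The 5 genes called in young livers were also 5 with a pseudocount of 0.1 or 1, median scaling, quantile normalization and no intensity trend, and the same genes each time. Counts were 2 with no filter on low values, 3 with a filter of RPKM at least 1, 2 when all 16 libraries entered the fit, 3 in voom, 3 with at least 10 reads in 4 libraries and 113 with sample quality weights. Leaving out 1 library at a time gave 2 to 16 calls, with 2 without control replicate 2, 16 without control replicate 3 and 3 without MANF replicate 1. The cause of these changes was not tested, except that the filters on values or reads remove Snord34 and Mir5100. The split of genes with an unadjusted p below 0.05 was 363 higher and 865 lower, but 794 and 447 under median scaling, 685 and 483 with quantile normalization and 824 and 474 in voom. With the replicate number as a block 5 genes were called, 4 of them shared with the fit without it (Tymp was lost). Deviations of same-numbered libraries correlated at 0.17, -0.05, -0.31 and -0.02, and only replicate 1 correlated best with its own number. Such values show no pairing common to all numbers, but they cannot exclude one, for example by cage or day. The Manf difference ranged from 0.07 to 0.34 when each library was left out. For the difference between ages, counts were 6 with sample quality weights and 0 to 2 when each library was left out (2 without young MANF replicate 4). Over 97 named genes and 22 alternatives there were 2130 comparisons, of which 2058 kept direction and side of the threshold, 21 lost a call, 47 gained one and 4 reversed. All 4 were Hspa5, at 0.095 with sample quality weights, 0.007 without control replicate 1 (range -0.27 to 0.007 when each library was left out), 0.019 with median scaling without MANF replicate 3 and 0.13 without both libraries. With 18.35 to 26.12 M reads per library, entries shorter than about 100 bases carry single reads near the minimum of 0.5 RPKM.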
